A study of Mus musculus with 20 samples.

Results

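The mouse genes named Zfp700 to Zfp999 encode zinc finger proteins, most of which are candidate DNA-binding repressors. Members were the protein-coding genes of GENCODE M21 with a symbol in that range and with 10 counts or more in the 20 libraries together. This left 111 of the 15522 genes tested. The annotation held 128 such genes, all of them in the count table, and the 17 others had between 0 and 8 counts in total. The members closest to the threshold were Zfp988 and Zfp781 with 17 counts each and Zfp981 with 18, and the closest genes outside it were Zfp819 and Zfp853 with 8. The set was drawn around Zfp979, a gene selected on its higher level in mice given both exposures than in controls, so the comparison of those mice with the controls is given below as a description and supports nothing by itself.

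The libraries measured polyadenylated RNA in the livers of 20 male C57Bl/6J mice, with 5 mice in each of 4 groups. All mice were 8 weeks old at the start and ate a high fat diet (HFD) with 42% of its energy from fat for 12 weeks. The HFD control mice received corn oil, the HFD + Aroclor mice Aroclor 1260 at 20 mg/kg, the HFD + PCB 126 mice PCB 126 at 20 µg/kg, and the HFD + Aroclor + PCB 126 mice (combined exposure) both, by gavage 2 weeks into the diet. Aroclor 1260 is a commercial mixture of polychlorinated biphenyls that mostly lack dioxin-like action, and PCB 126 is a dioxin-like congener that activates the aryl hydrocarbon receptor (AhR). Every group carried the diet, so no value here separates an effect of the diet.

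Many C2H2 zinc finger proteins carry a KRAB domain at the amino end and a row of fingers at the carboxyl end. The fingers read DNA, often inside transposable elements, and the KRAB domain recruits the scaffold protein TRIM28, which brings the histone methyltransferase SETDB1 and leads to heterochromatin. Such genes lie in clusters that arose by local duplication, and their fingers are coded by repeats of nearly the same length in one long exon.

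By a motif search of all coding transcripts of each gene, 82 of the 111 members (73.9%) encode a KRAB A box. This compares to 81 of the 226 other numbered Zfp genes tested (35.8%). In the longest coding sequence, at least 1 C2H2 finger was found in 104 members, with a median of 11 fingers and at most 23, in Zfp788 and Zfp748. The members lie on 15 chromosomes, with 23 on chromosome 7, 21 on chromosome 17 and 11 on chromosome 4. Clusters of at least 3 members, with gaps of at most 1 Mb, held 75 members in 13 clusters. Exons of the members were poor in GC, with a median of 41.4% compared to 47.5% in the other numbered Zfp genes and 50.2% in all genes tested. Of the 111 members, 76 (68.5%) were under 45% GC, compared to 22.3% of all genes.

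The base composition of these genes is visible in single finger repeats. One 84-base repeat, a finger with its linker to the next finger, is shown for the 3 members that were higher with the combined exposure both before and after correction for GC content, and for a pair of near-identical neighbours on chromosome 4. Each repeat reads 5′ to 3′ on the coding strand, lies in the last coding exon, and has in capitals the codons of the 2 cysteines and 2 histidines that hold the zinc ion. The coordinates are of GRCm38: Zfp979 chr4:147613309-147613392 (minus strand), Zfp982 chr4:147512749-147512832 (plus), Zfp937 chr2:150238364-150238447 (plus), Zfp991 chr4:147178891-147178974 (plus) and Zfp992 chr4:146466547-146466630 (plus).
Zfp979: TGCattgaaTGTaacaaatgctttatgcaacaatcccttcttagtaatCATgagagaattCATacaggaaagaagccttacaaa
Zfp982: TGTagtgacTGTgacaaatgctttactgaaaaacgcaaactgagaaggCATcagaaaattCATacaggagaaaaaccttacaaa
Zfp937: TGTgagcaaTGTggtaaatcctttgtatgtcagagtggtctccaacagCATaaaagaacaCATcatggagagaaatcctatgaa
Zfp991: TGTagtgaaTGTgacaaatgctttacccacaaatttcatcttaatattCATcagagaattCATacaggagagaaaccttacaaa
Zfp992: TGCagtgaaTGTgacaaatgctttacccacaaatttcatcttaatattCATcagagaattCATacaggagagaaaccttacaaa
These repeats held from 32.1% (Zfp991) to 39.3% GC (Zfp937). Those of Zfp979 and Zfp992 shared 70 of 84 bases. Those of Zfp991 and Zfp992 shared 83 of 84, so reads from these 2 repeats may not be assigned to 1 gene, which was not tested.

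A further set of 3 repeats, on GC-rich exons, comes from Zfp746, the one member higher after GC correction with PCB 126 alone, and from Zfp707 and Zfp771, which had the largest decreases with the combined exposure among members of at least 1 CPM (CPM, read counts scaled to a library of 1e6) on average. They lie at chr6:48064153-48064236 (Zfp746, minus strand), chr15:75974691-75974774 (Zfp707, plus) and chr7:127253856-127253939 (Zfp771, plus).
Zfp746: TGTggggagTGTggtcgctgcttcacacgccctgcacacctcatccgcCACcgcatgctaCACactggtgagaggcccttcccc
Zfp707: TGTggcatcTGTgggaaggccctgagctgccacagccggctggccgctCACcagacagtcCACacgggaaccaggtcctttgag
Zfp771: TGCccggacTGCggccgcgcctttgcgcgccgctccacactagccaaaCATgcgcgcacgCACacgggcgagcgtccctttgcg
Here GC was 64.3% in Zfp746 and Zfp707 and 71.4% in Zfp771. The spacing of the zinc-holding codons was set by the search that picked the repeats. The repeats of Zfp982 and Zfp771 shared 36 of 84 bases.

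Sequence sharing limits some members more than others. Of all 75-base windows along their exons, none was shared with another gene in 31 members, while more than 10% of windows were shared in 31 members and more than 50% in 7. The spans of 11 members from start to end, introns included, overlap that of another gene tested, and overlap of exons alone was not counted. Whether the counting used strand, and which annotation release it used, is not given in the sources used here, so the levels of these members are uncertain.

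Total counts ranged from 21836506 to 36854887 per library, and the combined group was the shallowest by its highest library, at 23471120 to 29366462. In the PCB 126 mice Cyp1a1, the AhR target that metabolises aromatic compounds, was at 4.09 to 314 CPM compared to 0.219 to 0.940 in HFD controls (log2 fold change, log2FC, 6.93, adjusted p = 0.010, edgeR). In combined mice Cyp1a1 was at 0.792 to 2.62 CPM (adjusted p = 0.502), while Cyp1a2, another AhR target, was higher in both groups (log2FC 2.04 with PCB 126 and 1.00 with the combination, adjusted p = 0.00326 for the latter). Hepatocyte markers summed to 69598 to 100842 CPM in every library. Among markers of other liver cells, Kupffer cell markers summed to 115 to 249 CPM in controls and 130 to 183 in combined mice. Stellate cell markers summed to 137 to 291 and 301 to 350, and lymphocyte markers to 8.55 to 17.1 and 15.9 to 20.3. Endothelial markers summed to 89.7 to 189 and 126 to 156, and cholangiocyte markers to 66.5 to 74.7 and 63.0 to 130. Dcn was the largest part of the stellate sum. Its log2FC of combined mice over controls was 0.60, and 0.045 after GC correction, while Des was at −1.38 and −1.09. With the combination 1 of 6 Kupffer cell genes, 3 of 6 stellate cell genes and 1 of 6 lymphocyte genes were called higher. Called lower were 3 of 6 hepatocyte, 1 of 6 stellate cell and 1 of 6 endothelial genes. Over all genes tested, 15.8% were called higher and 17% lower. After GC correction 1 hepatocyte gene, Ttr, was still called, where 1.95% of all genes were called higher and 2.49% lower. The part of these cells in the results below was not tested, and in whole liver fewer cells of a type and less RNA per cell cannot be told apart.

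The members were mostly expressed at low level. In CPM per kilobase of exon, the median member stood at 0.914 compared to 1.71 for all genes, and 59 of 111 were under 1. The highest was Zfp706, a small protein with 1 finger and no KRAB box, at 25.2. It was followed by Zfp809 (10.3), a KRAB protein that silences integrated murine retroviruses in embryonic cells, and by Zfp825 (8.93), Zfp869 (8.27) and Zfp740 (5.52). The CPM ranges of Zfp825 and Zfp869, whose exons are of like length, overlapped over the 20 mice, so their order is not fixed.

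Zfp706 was at 117, 115, 135, 129 and 119 CPM in HFD controls and at 124, 135, 129, 132 and 140 CPM in combined mice. Those ranges overlapped (log2FC 0.10 ± 0.07 SE, adjusted p = 0.283, and −0.24 after correction for GC content, described below), and Zfp706 passed the threshold in no comparison. Zfp809 was at 35.3, 31.5, 21.1, 37.7 and 31.8 CPM in controls and at 27.4, 34.2, 24.2, 34.5 and 34.2 CPM in combined mice, which also overlapped (log2FC −0.03 ± 0.19, and −0.27 after correction). Zfp740, whose gene span overlaps that of Csad, was likewise not called (log2FC 0.05 ± 0.11, and 0.065 after correction). Zfp869 was not called either (log2FC 0.21 ± 0.16, adjusted p = 0.356, and −0.15 after correction). Among the 5 most abundant members, Zfp825 alone was past the threshold, with 10.6 to 13.1 CPM in controls and 14.3 to 18.2 in combined mice (log2FC 0.46 ± 0.09, adjusted p = 0.00185), and with GC correction its log2FC was −0.12 (adjusted p = 0.62).

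Summed over all 111 members, the level was 602 to 694 CPM in HFD controls, 604 to 692 in Aroclor mice, 657 to 706 in PCB 126 mice and 748 to 813 in combined mice. Every combined mouse was thus above every other mouse. Without Zfp706 the combined mice were at 620 to 681 CPM and the controls at 468 to 565. The median member deviated from its own mean over all mice by 0.07 to 0.34 log2 units in combined mice and by −0.16 to 0.02 in controls, and after GC correction by −0.02 to 0.14 and −0.10 to 0.09. By this median the mice of these groups no longer separated after the correction, and no corrected sum was made.

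**Figure D1:**
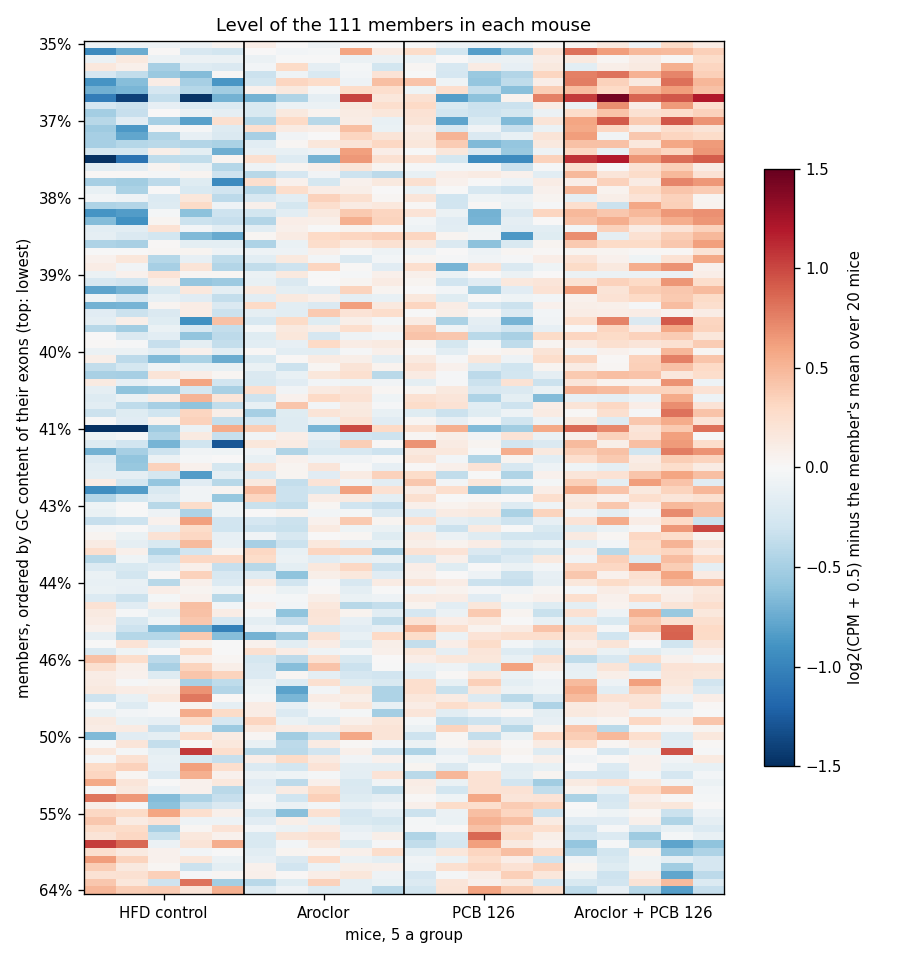
Heat map of the 111 members (one line each, ordered by exon GC content) in the 20 mice (one column each, by group); colour is log2(CPM + 0.5) minus the member's mean over all mice. Lines of low GC are mostly above their mean in the 5 combined mice, and the median member there is 0.07 to 0.34 above its mean.

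In the comparison of combined mice with HFD controls, which the choice of the members used, 53 of the 111 members had an adjusted p under 0.05 in edgeR's quasi-likelihood test, 47 of them higher (42.3% of members) and 6 lower (5.41%). Over all genes tested, 15.8% were called higher and 17% lower. The median log2FC was 0.44 over the members, 0.14 over the other numbered Zfp genes (50 higher and 29 lower of 226) and −0.00 over all genes. All combined mice were above all controls for 34 members (30.6%) and below for 2 (1.80%), while over all genes 10.6% lay above without overlap and 8.14% below. Nothing is read from these counts, since the members were drawn around a gene chosen in the same contrast.

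Over the 111 members, the log2FC had a Pearson correlation with exon GC content of −0.69 (Spearman −0.77), given as a description over genes that share the same 10 libraries. Genes outside the set carried such a trend too. The slope of log2 deviation on GC, per 10 percentage points and without the members, was 0.0818 to 0.423 in HFD controls, −0.0989 to 0.112 in Aroclor mice, −0.0966 to 0.354 in PCB 126 mice and −0.544 to −0.119 in combined mice. The mean slope was 0.233 ± 0.132 (SD, n = 5) in controls and −0.336 ± 0.164 (SD, n = 5) in combined mice, a difference of −0.57 (exact permutation test, two-sided, p = 0.00794, the smallest that 252 splits allow). The libraries were indexed group after group and the sequencing runs are not named for each library, so the order of preparation and the exposure cannot be told apart.

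A correction that removes each library's smooth trend with GC was therefore fitted over the 15516 genes with a GC value and its values are given beside most of those below. With it, 5 of the 111 members were called with the combined exposure, 4 higher (Zfp979, Zfp746, Zfp982 and Zfp937) and 1 lower (Zfp707), where 1.95% of all genes were called higher and 2.49% lower. The median log2FC of the members was then 0.06, compared to −0.04 in the other numbered Zfp genes (4 higher and 4 lower) and −0.03 in all genes, and the correlation with GC over members was −0.27. The correction was fitted on the same libraries, and it also removes any change that genes of like GC content share. The number of calls after correction ranged from 2 to 8 when 1 library was left out. It was 2 without control replicate 2, combined replicate 1 or combined replicate 5. It was 3 without control replicate 5 or combined replicate 2, 3 or 4, and 8 without control replicate 3. The share of all genes called in these fits is not given here.

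The members were then set beside all genes tested of the same GC class, without correction first. Under 40% GC, 28 of 41 members were higher and 0 lower (median log2FC 0.90), compared to 311 and 0 of 556 genes (0.66). Between 40 and 45% GC, 18 of 35 members were higher (median 0.44), compared to 1270 of 2905 genes (0.42). Between 45 and 50% GC, 1 of 15 members was higher (median 0.04), compared to 731 of 4142 genes (0.17). At 50% GC and above, 6 of 20 members were lower and 0 higher (median −0.29), compared to 2512 lower and 142 higher of 7913 genes (−0.35). After correction the median of the members under 40% GC was 0.31, with 2 called higher, compared to 0.06 over all genes of that class, and the other classes of members stood at 0.03, −0.08 and 0.04.

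**Figure D2:**
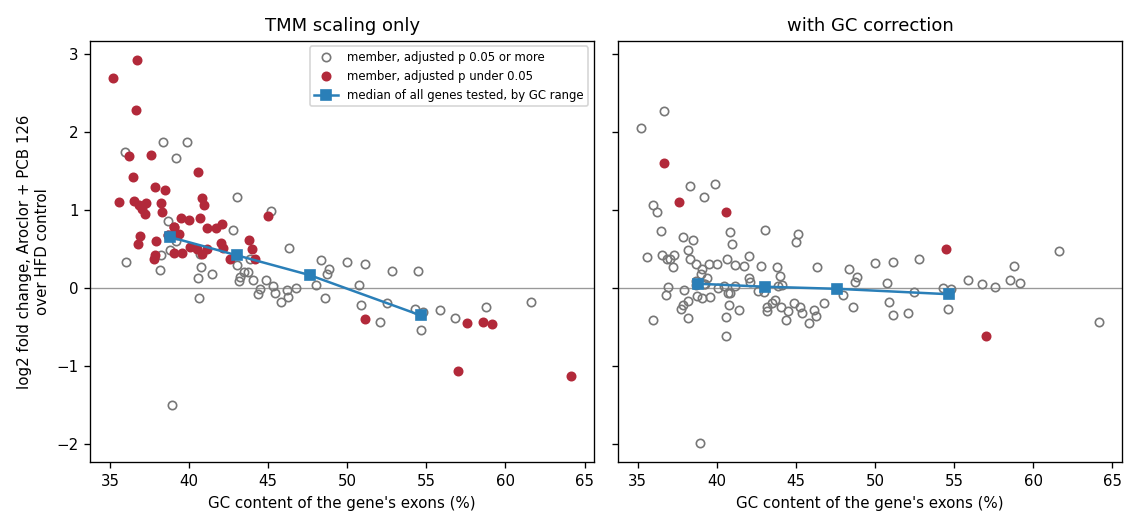
Log2 fold change of combined mice over HFD controls (vertical axis) against exon GC content in percent (horizontal axis) for the 111 members, without (one panel) and with GC correction (the other); the line joins medians of all genes tested by GC range. Without correction the members and the line both fall from low to high GC, from a median of 0.90 under 40% to −0.29 at 50% and above.

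Zfp979, also known as Ssm1b, is a KRAB protein that takes part in strain-specific DNA methylation of transgenes in the mouse embryo. It lies at chr4:147611937-147642513 on the minus strand and shared 23.6% of its windows, most often with Zfp600. Its CPM was 2.01, 1.46, 3.55, 1.36 and 2.67 in HFD controls, 2.66, 3.30, 4.22, 9.97 and 5.32 in Aroclor mice, 5.55, 2.42, 2.88, 4.85 and 8.27 in PCB 126 mice, and 10.2, 13.5, 8.99, 9.38 and 11.4 in combined mice. All combined mice were above all controls, the single exposures overlapped the controls, and 1 Aroclor mouse reached the range of the combined group. The log2FC of combined mice over controls was 2.28 ± 0.36 (adjusted p = 0.0006, edgeR), and 1.60 ± 0.33 after GC correction (adjusted p = 0.0124). Leaving out each of the 10 mice in turn gave 2.13 to 2.51, and 1.43 to 1.81 with correction, and the call held each time.

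Zfp982, a KRAB gene at chr4:147492417-147513486, was at 1.04, 1.51, 2.82, 2.85 and 3.96 CPM in controls and at 8.67, 9.33, 6.33, 7.24 and 7.62 CPM in combined mice. The ranges did not overlap, and the log2FC was 1.70 ± 0.35 (adjusted p = 0.00175), or 1.10 ± 0.29 after correction (adjusted p = 0.0335). The corrected call was lost without any one of control replicates 1 and 2 and combined replicates 1, 2 and 5 (highest adjusted p = 0.0751).

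Zfp937, a KRAB gene at chr2:150218073-150240725, was at 0.470, 0.200, 0.229, 0.395 and 0.258 CPM in controls, 0.765, 0.525, 0.664, 0.71 and 0.584 in Aroclor mice and 1.01, 0.980, 0.840, 0.836 and 0.734 in combined mice. The PCB 126 mice, at 0.397 to 0.677 CPM, overlapped the controls, and the other exposed groups lay above them. With the combination the log2FC was 1.48 ± 0.27 (adjusted p = 0.00105) and 0.98 ± 0.27 after correction (adjusted p = 0.0424). The corrected call was kept without control replicate 1 or 4 and lost without any of the other 8 mice (highest adjusted p = 0.0924).

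Zfp707, at chr15:75969123-75975868, was lower at 57.0% GC, with 32.4, 28.5, 14.6, 17.9 and 22.8 CPM in controls and 10.2, 15.4, 11.5, 8.73 and 10.1 CPM in combined mice. One combined mouse, replicate 2, was above the lowest control. The log2FC was −1.06 ± 0.21 (adjusted p = 0.00151), and −0.61 ± 0.17 after correction (adjusted p = 0.0498). The corrected call was lost without control replicate 1, 2 or 5 or combined replicate 1, 3, 4 or 5 (highest adjusted p = 0.12).

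**Figure D3:**
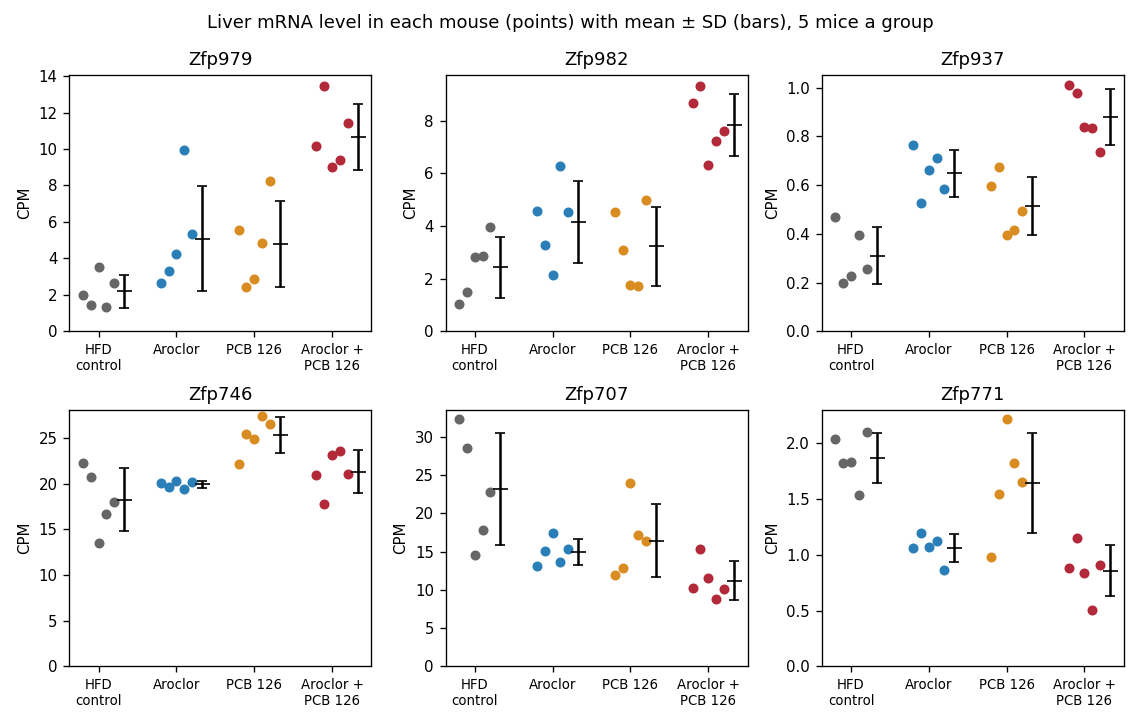
CPM (linear axis from 0) of Zfp979, Zfp982, Zfp937, Zfp746, Zfp707 and Zfp771 in each of the 20 mice by group; points are mice, and bars the group mean with its SD (n = 5). For Zfp979 the combined mice sit at 8.99 to 13.5 and the controls at 1.36 to 3.55, while for Zfp771 the combined mice sit at 0.509 to 1.15 and the controls at 1.54 to 2.11.

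The other members with the largest increases and at least 1 CPM on average were Zfp984, Zfp960, Zfp871, Zfp931, Zfp758 and Zfp943, all KRAB genes with exons under 41% GC. Zfp984, a neighbour of Zfp979, was at 0.549 to 1.60 CPM in controls and 1.64 to 2.94 in combined mice (log2FC 1.43 ± 0.31, adjusted p = 0.00241, and 0.73 with adjusted p = 0.109 after correction). Zfp960, which shared 75.3% of its windows, mostly with Zfp97, was at 0.387 to 1.01 and 1.32 to 2.33 CPM (1.30 ± 0.24, adjusted p = 0.00104, and 0.66 with 0.07 after correction). For both genes the ranges of these groups did not overlap. Zfp931 was at 2.30, 2.37, 3.39, 2.94 and 2.71 CPM in controls and 5.85, 5.20, 6.05, 6.65 and 5.77 in combined mice (log2FC 1.11 ± 0.18, adjusted p = 0.0006), with 0.43 ± 0.14 and adjusted p = 0.0763 after correction.

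Zfp758 (1.10 ± 0.25, adjusted p = 0.00289) and Zfp943 (1.10 ± 0.20, adjusted p = 0.00104) lie in the same cluster on chromosome 17 and also separated the groups. After correction Zfp758 stood at 0.40 (adjusted p = 0.215) and Zfp943 at 0.49 (adjusted p = 0.0692). Zfp871 was spread widest, at 1.75, 2.23, 5.99, 8.29 and 13.3 CPM in controls and 16.3, 14.9, 10.1, 11.9 and 16.1 in combined mice, and these ranges overlapped. Its log2FC of 1.16 ± 0.43 (adjusted p = 0.0437) lost the call when control replicate 1, 2 or 3 or combined replicate 1, 2, 4 or 5 was left out (highest adjusted p = 0.112), and it was 0.72 after correction (adjusted p = 0.274).

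The 6 members called lower were Zfp771, Zfp707, Zfp768, Zfp710, Zfp865 and Zfp954, each at 50% GC or above. Zfp771, at chr7:127244274-127254803, was at 2.04, 1.83, 1.83, 1.54 and 2.11 CPM in controls, 1.06, 1.20, 1.07, 1.12 and 0.861 in Aroclor mice, 0.984, 1.55, 2.22, 1.83 and 1.65 in PCB 126 mice and 0.880, 1.15, 0.840, 0.509 and 0.909 in combined mice. Both groups given Aroclor lay below all controls, and the PCB 126 mice overlapped them. The log2FC of combined mice was −1.12 ± 0.22 (adjusted p = 0.00154), and −0.44 ± 0.20 after correction (adjusted p = 0.208).

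Correction turned the sign of 3 of the 6. Zfp768, a neighbour of Zfp771, went from −0.46 ± 0.14 (adjusted p = 0.0188) to 0.070, Zfp710 from −0.44 ± 0.14 (adjusted p = 0.0168) to 0.020, and Zfp865 from −0.43 ± 0.15 (adjusted p = 0.0328) to 0.10. Without correction, the call of Zfp768 was lost without combined replicate 5, and that of Zfp865 without control replicate 1 or 2 or combined replicate 2 or 5. Zfp703, a corepressor with no match in the finger search and with exons of 61.6% GC, was not called. It was at 4.43 to 11.9 CPM in controls and 5.28 to 9.31 in combined mice (log2FC −0.18 ± 0.23, and 0.48 after correction with adjusted p = 0.202). The gene span of Zfp865 overlaps those of Ccdc106 and Zfp784. Zfp954, named after its values were seen since the rule took 5 decreases, kept its size at −0.39 ± 0.13 (adjusted p = 0.0274) and −0.34 ± 0.11 after correction (adjusted p = 0.0806).

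The 11 members of the chromosome 4 cluster (from Zfp990 at position 145510759 to Zfp933, which ends at 147848366) had a median log2FC of 1.70 with 7 called higher, and of 1.06 with 2 called, Zfp979 and Zfp982, after correction. Among the 8 of these members with at least 50 counts, 6 were called and the median was 1.56, and 0.85 with 2 called after correction. Its neighbours were not alike: Zfp933, at its end, was at 3.70 to 7.19 CPM in controls and 4.37 to 7.67 in combined mice (log2FC 0.13 ± 0.18, adjusted p = 0.614, and −0.37 with 0.184 after correction), and Zfp993 was not called (0.68 ± 0.30, adjusted p = 0.0921, and 0.061 after correction). Zfp991 rose from 0.219 to 0.645 CPM in controls to 0.944 to 1.49 in combined mice, with a corrected log2FC of 0.97 (adjusted p = 0.0761), but shared 75.9% of its windows. In this cluster 3 members were near the detection limit. Zfp988 had 17 counts in all, with counts in 1 of 5 controls and 4 of 5 combined mice, Zfp981 had 18, with counts in 1 of 5 controls and 5 of 5 combined mice, and Zfp985 had 36, so no fold change is given for them.

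Of the other clusters, 13 members on chromosome 17 had a median of 0.91 (10 called higher), which was 0.27 with 0 called after correction. Another 6 members of chromosome 17 stood at 0.79 (3 called) and 0.32 (0 called), 5 of chromosome 2 at 0.78 (2 called) and 0.29 (0 called), and 5 of chromosome 13 at 0.67 (4 called) and 0.03 (0 called). In a cluster of 7 members on chromosome 7, with exons of 37.8 to 43.9% GC, 5 were called higher (median 0.43, and 0.03 after correction). The opposite direction was seen in 4 members of chromosome 7 with exons of 52.5 to 64.1% GC, Zfp771 and Zfp768 among them, where 2 were called lower (median −0.50, and −0.16 after correction). On chromosome 6, 5 members with a median GC of 54.5% moved from −0.24 to 0.25, and Zfp746 was the one called, after correction.

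**Figure D4:**
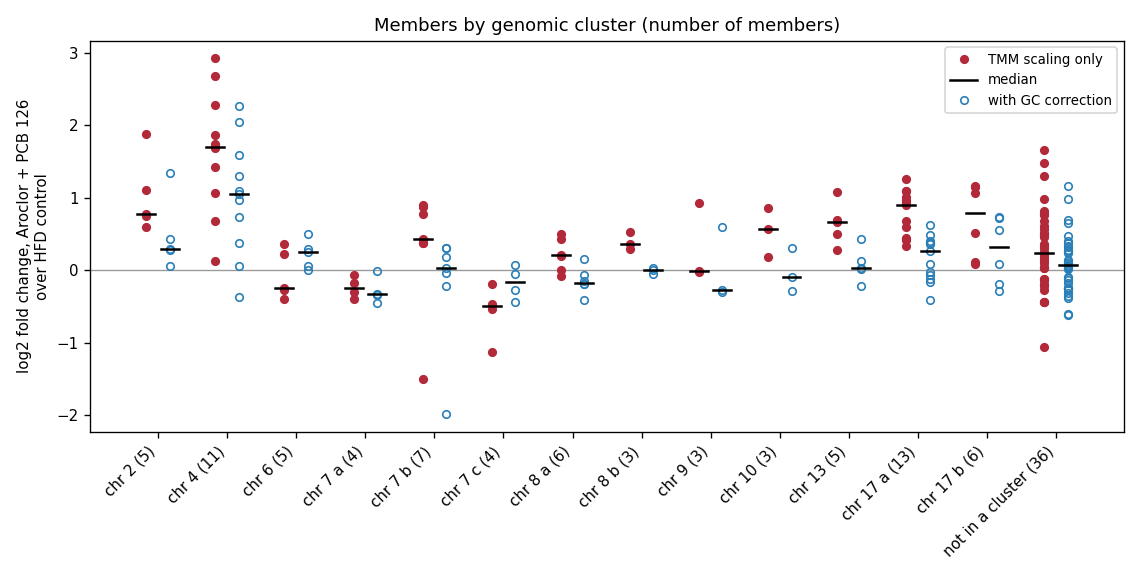
Log2 fold change of combined mice over HFD controls for the members of each of the 13 clusters and for those outside, without and with GC correction; points are members and ticks the medians. The chromosome 4 cluster has the highest medians, 1.70 without and 1.06 with correction, and the medians of the other clusters lie between −0.33 and 0.32 with correction.

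Members with and without a match to the KRAB A box motif also differed in GC. The search looked for a fixed motif, so a gene without a match may still encode a KRAB box. Of the 82 members with a match, 41 were higher and 2 lower (median 0.55). Of the 29 without, 6 were higher and 4 lower (median 0.18). After correction the medians were 0.05 and 0.08, with 3 higher and 1 lower, and 1 higher (Zfp746). Median exon GC was 40.6% and 50.7% in these groups. Of the 31 members that shared at least 10% of their windows, 14 were higher and 1 lower (median 0.75, and 0.28 after correction), compared to 18 and 5 of the 50 that shared under 1% (0.35, and 0.03 after correction).

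With Aroclor 1260 alone, 0 of the 111 members passed the threshold in edgeR, as did 0.0% of all genes, both without and with GC correction, and this comparison shares its controls with the one that chose the members. The unadjusted p was under 0.05 for 32 members (28.8%, compared to 17.2% of all genes), or 28 after correction (25.2% compared to 11.8%). DESeq2 called 2 (1.80%, compared to 0.870% of all genes), Zfp931 higher and Zfp771 lower. The median log2FC was 0.14, and −0.02 after correction. Zfp931 was at 4.32, 4.61, 4.04, 5.08 and 5.01 CPM in Aroclor mice, above all controls, with a log2FC of 0.75 ± 0.18 (adjusted p = 0.184) and 0.42 after correction. For Zfp937 the log2FC was 1.05 ± 0.27 (0.81 after correction) and for Zfp771 −0.81 ± 0.22 (−0.52), and both had that same adjusted p of 0.184 without correction.

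With PCB 126 alone, 0 members were called in edgeR where 0.116% of all genes were, 19 had an unadjusted p under 0.05 (17.1%, compared to 14.7% of all genes), and the median log2FC was 0.10. DESeq2 called 3 (2.70%, compared to 2.06% of all genes), Zfp746, Zfp810 and Zfp960. After GC correction 1 member, Zfp746, was called where 0.296% of all genes were. Without control replicate 1 the uncorrected count was 3, and it was 1 without PCB 126 replicate 3, with the share of all genes in these fits not given here.

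Zfp746, also called PARIS, is a substrate of the ubiquitin ligase parkin and represses the coactivator gene Ppargc1a. It lies at chr6:48062395-48086593 on the minus strand, has no shared window and was at 22.3, 20.7, 13.5, 16.7 and 18.0 CPM in controls, 20.1, 19.7, 20.3, 19.4 and 20.1 in Aroclor mice, 22.2, 25.5, 24.9, 27.4 and 26.6 in PCB 126 mice and 20.9, 17.8, 23.2, 23.6 and 21.1 in combined mice. The lowest PCB 126 mouse lay within the control range and the other 4 above it. Its log2FC with PCB 126 was 0.47 ± 0.11 (adjusted p = 0.0732), and 0.59 ± 0.10 after correction (adjusted p = 0.0204). That call was lost without PCB 126 replicate 2, 4 or 5 (highest adjusted p = 0.0743). With the combination it was 0.23 ± 0.11 (adjusted p = 0.133) and 0.50 ± 0.10 after correction (adjusted p = 0.0126).

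Zfp810, a KRAB gene, was at 8.20, 6.22, 4.77, 4.65 and 3.61 CPM in controls and at 11.3, 9.44, 8.11, 8.55 and 10.7 in PCB 126 mice, which overlapped by 1 control (log2FC 0.80 ± 0.18, adjusted p = 0.063, and 0.76 with adjusted p = 0.0684 after correction). In combined mice it was at 7.62 to 14.7 CPM, a log2FC of 0.93 ± 0.18 (adjusted p = 0.00152) that was 0.60 after correction (adjusted p = 0.0618). Zfp960 had 1.12 to 1.52 CPM with PCB 126, above all controls (log2FC 0.85 ± 0.24, adjusted p = 0.12, and 0.70 with 0.148 after correction).

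Since PCB 126 acts through AhR, the 250 bases before the start of Zfp746 and Zfp979 were searched for GCGTG, the core that AhR and its partner recognise, on both strands. The windows are chr6:48086594-48086843 (Zfp746) and chr4:147642509-147642758 (Zfp979), both on the minus strand, from RefSeq on GRCm38.p6, with matches in capitals.
Zfp746: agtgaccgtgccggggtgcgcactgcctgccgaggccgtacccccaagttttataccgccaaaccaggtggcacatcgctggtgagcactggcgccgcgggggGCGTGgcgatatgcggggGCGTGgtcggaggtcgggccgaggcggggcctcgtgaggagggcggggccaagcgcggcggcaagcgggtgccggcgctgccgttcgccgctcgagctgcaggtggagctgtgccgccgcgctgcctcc
Zfp979: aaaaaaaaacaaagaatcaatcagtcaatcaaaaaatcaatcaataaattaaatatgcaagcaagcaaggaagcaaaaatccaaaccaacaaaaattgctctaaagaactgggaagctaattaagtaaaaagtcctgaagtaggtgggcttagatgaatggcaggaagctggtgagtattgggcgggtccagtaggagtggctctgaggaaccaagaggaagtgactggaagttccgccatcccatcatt
Zfp746 had 2 matches in a window of 74% GC and Zfp979 had 0 in one of 39.6% GC. Over 97 members with an entry, 31 of 114 promoters (27.2%) held the core, compared to 9250 of 32851 promoters of all genes (28.2%). A match is a run of letters and not a bound site.

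The difference between PCB 126 and Aroclor 1260 alone involves neither the controls nor the combined mice, although its error and the GC correction were estimated over all 4 groups. No member was called in edgeR (0 of 111), without or with GC correction, where 0.0258% and 0.0193% of all genes were, and DESeq2 called 0, where it called 0.412% of all genes. The unadjusted p was under 0.05 for 8 members (7.21%, compared to 9.08% of all genes), or 9 after correction (8.11% compared to 9.57%), and the median log2FC was 0.01, or 0.09. Zfp746 was higher with PCB 126 in every mouse than with Aroclor in any (log2FC 0.35 ± 0.11, adjusted p = 0.348, and 0.34 after correction), Zfp771 had 0.63 ± 0.22 (adjusted p = 0.392, and 0.50 after correction), and Zfp970 was at 12.1 ± 1.96 CPM (SD) with PCB 126 and 8.67 ± 0.921 with Aroclor (0.48 ± 0.17, adjusted p = 0.397, and 0.63 after correction). None of these 3 differences passed the correction for the number of genes tested.

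Compared to PCB 126 alone, the combination had 20 members higher and 3 lower in edgeR, where 5.64% and 11.0% of all genes were higher and lower. After GC correction 0 members were called where 0.0% of all genes were, and 12 had an unadjusted p under 0.05 (10.8%, compared to 20% of all genes). The combined mice here are those of the comparison that chose the members. Zfp992 was at 7.45, 3.51, 5.46, 3.90 and 7.46 CPM with PCB 126 and 9.99, 12.6, 8.61, 12.8 and 10.6 with the combination (log2FC 0.97 ± 0.23, adjusted p = 0.0144, and 0.47 after correction). Zfp991 had 1.28 ± 0.33 (adjusted p = 0.0185, and 0.81 after correction) and Zfp942 0.74 ± 0.18 (adjusted p = 0.0168, and 0.28 after correction). In the opposite direction, Zfp710 was at 6.77 to 10.5 CPM with PCB 126 and 4.87 to 7.87 with the combination (−0.59 ± 0.14, adjusted p = 0.0144, and −0.27 after correction), and Zfp771 had −0.94 ± 0.22 (adjusted p = 0.0151, and −0.42 after correction). Zfp979 was also called (1.16 ± 0.34, adjusted p = 0.0301, and 0.67 with adjusted p = 0.234 after correction).

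These calls changed when single libraries were left out, and the share of all genes called in those fits is not given here. Without PCB 126 replicate 3 or 4 the count fell from 23 to 0, without PCB 126 replicate 5 there were 15, and without combined replicate 2, 4 or 5 there were 13, 6 and 2. Zfp992 and Zfp991 lost the call without PCB 126 replicate 3 or 4, and Zfp710, Zfp771 and Zfp942 also without combined replicate 5. Over these genes the highest adjusted p (edgeR) was from 0.0548 (Zfp710) to 0.0637 (Zfp991). The log2FC stayed at 0.84 to 1.10 for Zfp992 and at −0.74 to −0.53 for Zfp710. PCB 126 replicates 3 and 4 had GC slopes of 0.354 and 0.241, the steepest of their group.

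Compared to Aroclor alone, the combination had 2 members called, Zfp976 and Zfp715, where 0.412% of all genes were, and 0 after GC correction, where 0.0193% were. The unadjusted p was under 0.05 for 34 members (30.6%, compared to 23.4% of all genes), or 11 after correction (9.91% compared to 10.1%), and DESeq2 called 10 (9.01%, compared to 8.65%). Zfp976 was at 2.53, 2.89, 3.41, 2.76 and 2.58 CPM with Aroclor and 5.15, 4.09, 4.37, 5.16 and 4.20 with the combination (log2FC 0.70 ± 0.13, adjusted p = 0.0400, and 0.36 with adjusted p = 0.478 after correction). Zfp715 was at 11.3, 11.0, 14.7, 11.6 and 11.2 CPM with Aroclor and 16.2, 19.2, 15.4, 20.3 and 19.9 with the combination (0.61 ± 0.12, adjusted p = 0.0489, and 0.36 with 0.364 after correction). Neither range overlapped, and with Aroclor over controls the log2FC was −0.27 for Zfp976 (adjusted p = 0.286) and −0.23 for Zfp715 (adjusted p = 0.326). Without Aroclor replicate 2, 3, 4 or 5 or combined replicate 2, 4 or 5 the count was 0. Without Aroclor replicate 1 it was 1, with Zfp715 lost, and without combined replicate 3 it was 5. The share of all genes in these fits is not given here.

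A list of 27 genes held the machinery that KRAB proteins recruit, with other heterochromatin factors and the KRAB proteins Zfp57 and Zfp809, the latter also a member. Of these, 9 were called higher and 1 lower (Daxx, a histone chaperone) with the combination, where 15.8% and 17% of all genes were, and 0 with either single exposure. After GC correction 0 of the 27 were called, where 1.95% of all genes were higher and 2.49% lower. Trim28, the scaffold that binds KRAB domains, was at 50.6 to 54.9 CPM in controls and 28.6 to 52.4 in combined mice (log2FC −0.24, adjusted p = 0.141, and 0.073 after correction), and Setdb1, its histone methyltransferase partner, was at 24.2 to 32.3 and 27.8 to 33.1 (log2FC 0.0066, and −0.10 after correction). The increases of lowest p were in Morc3, an ATPase of silenced chromatin (0.76 ± 0.15, adjusted p = 0.00135, and 0.36 with 0.105 after correction), Fam208a, the core of the HUSH silencing complex (0.71 ± 0.14, and 0.040 after correction), and Smarcad1, a chromatin remodeller (0.59 ± 0.12, and 0.096 after correction). Atf7ip, a partner of Setdb1, had 0.39 ± 0.09, Atrx, a remodeller of heterochromatin that acts with Daxx, 0.74 ± 0.18, and Hdac2, a histone deacetylase, 0.41 ± 0.10, and after correction 0.055, 0.25 and −0.032.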

How the data were processed

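Liver RNA of 20 mice, 5 separate mice in each of 4 groups, was analysed. The authors deposited raw counts per gene, from stranded TruSeq libraries of polyadenylated RNA. FastQC 0.10.1, STAR 2.6, HTSeq 0.10.0 and GRCm38.p6 are named in the submitters' processing notes, and the strand setting and annotation release of the counting are not given in the sources used here. The labels describe treatment over the 12 weeks of the diet, and the dosing day was taken from the methods. One PCB 126 label carries a second number that differs from its replicate number, and the replicate number was used.

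The members, the gene lists and the tests were chosen with earlier results of these data known. The 15522 genes that reached 10 counts over all libraries were tested with edgeR 4.0.16 in R 4.3.3, with TMM normalization and the quasi-likelihood test, all 4 groups in one fit (16 residual degrees of freedom), and Benjamini-Hochberg adjustment over all genes tested. A gene was called at an adjusted p under 0.05. Levels are CPM on TMM library sizes, and CPM per kilobase of exon where genes are compared. For GC correction, each library's log2 deviations from the gene means were smoothed on exon GC content (spline, 6 degrees of freedom) over 15516 genes, and entered as offsets. Fingers, KRAB boxes and windows of 75 bases came from GENCODE M21 transcripts, and promoters from RefSeq. Python 3.11.15 with scipy 1.17.1 made the tables and the exact permutation test.

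Named were Zfp979, the 5 members of highest level per length, the members of at least 1 CPM with the 8 largest increases and 5 largest decreases among those called with the combination, in each other comparison the members called (at most 5) or, where there was none, the 3 of smallest p, the members called after GC correction, the 3 members of lowest and of highest GC content, and the 6 corepressor genes of smallest p. Zfp954, Zfp933, Zfp985, Zfp990, Zfp993, Daxx, Trim28 and Setdb1 were added after their values were seen. Alternatives were DESeq2 1.42.0, other size factors, other filters, GC and length correction, GC slope as a covariate, a replicate block and leaving out each mouse. All columns of the count table belong to a sample. Precision is limited by 5 mice a group, and p-values measure the spread between these mice.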

Additional observations from a re-analysis of the deposited data

Results flagged for a closer look

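In groups of 5 mice, 8 of 120 groups of named members held 1 mouse far from the other 4, beyond Dixon's 95% value of 0.71, where chance gives about 1 in 20. Among the Aroclor mice, Zfp869 was at 15.7 CPM in replicate 1 (others 11.4 to 12.1), Zfp758 at 5.52 CPM in replicate 4 (3.38 to 3.84), Zfp865 at 6.30 CPM in replicate 3 (4.23 to 4.67) and Zfp715 at 14.7 CPM in replicate 3 (11.0 to 11.6). Zfp970 was at 15.5 CPM in PCB 126 replicate 4 (10.3 to 11.6), and Zfp976 was lowest in control replicate 5, at 2.75 CPM (3.47 to 3.64). Control replicate 5 alone among controls had counts of Zfp988 (0.043 CPM), and control replicate 2 alone of Zfp981 (0.0856 CPM).

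Zfp746 had opposite signs for the addition of Aroclor 1260 with and without PCB 126. Its mean in combined mice minus that in PCB 126 mice was −3.99 CPM, and its mean in Aroclor mice minus that in controls was 1.71 CPM. This difference was not tested.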

How the results depend on the processing

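Counts of members called are given here under other settings. Shares of all genes are given above for GC correction and DESeq2 and are not given for the other settings or the fits without 1 mouse. Changes in these counts are therefore not read as particular to the members. With the combination over controls (53 called), GC correction gave 5, GC and length correction 5, the GC slope as a covariate 0, and a filter on CPM per kilobase 26, of 52 members tested. With PCB 126 over controls (0), GC correction gave 1, GC and length correction 1, the covariate 2 and DESeq2 3. With Aroclor over controls (0), DESeq2 gave 2. With the combination over PCB 126 (23), each of the 3 GC settings gave 0. With the combination over Aroclor (2), each of the 3 gave 0, DESeq2 gave 10 and a fit on only the groups compared 0. Leaving out 1 mouse gave 40 to 59 calls for the combination (2 to 8 with GC correction), 0 to 3 for PCB 126 (0 to 2), 0 to 33 for the combination over PCB 126 (0 to 0), 0 to 5 for the combination over Aroclor (0 to 0), and 0 to 0 for Aroclor over controls and for PCB 126 over Aroclor. The GC slope difference was −0.623 to −0.517.

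Same-numbered libraries had correlations of −0.154 to 0.765 over 30 pairs (median 0.084), and 9 of 20 libraries correlated best with their own number, and since not every pair was over 0.1 the numbers were not taken to pair mice. The 9 are a hint from the data, not from the design. With a replicate block the combination over controls had 56 calls (7 with GC correction) and the combination over Aroclor 5 (0). With block and GC correction the combination over PCB 126 had 0 and PCB 126 over controls 2. The share of all genes called with a block is likewise not given.

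Of 38 named differences, some log2FC values of the combination over controls reversed. With GC correction these were Zfp768 0.070, Zfp710 0.020, Zfp865 0.10, Zfp703 0.48 and Hdac2 −0.032. With GC and length correction they were Zfp768 0.10, Zfp865 0.027, Zfp703 0.49, Fam208a −0.037, Atf7ip −0.053 and Hdac2 −0.040. With the covariate they were Zfp871 −0.49, Zfp707 0.026, Zfp768 0.18, Zfp710 0.17, Zfp865 0.17, Atrx −0.11 and Hdac2 −0.061. The slopes of combined and control libraries do not overlap, so the covariate fit can hardly separate slope from exposure in this comparison. With block and GC correction they were Zfp768 0.070, Zfp710 0.014, Zfp865 0.11, Zfp703 0.49 and Hdac2 −0.030. Zfp703 was at −0.38 to 0.036 when 1 mouse was left out, and positive without control replicate 4. The cause was not tested. Other log2FC values in the text that changed sign with GC correction were Zfp825 −0.12, Zfp706 −0.24, Zfp869 −0.15, Zfp933 −0.37, Trim28 0.073 and Setdb1 −0.10. Over the 38, other settings than leaving out a mouse kept direction and call in 327 cases, lost the call in 78, gained it in 14 and reversed in 23. At fewer than 1 CPM, 25 members were too shallow for small changes.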
